A study of Mus with 4 samples.

Results

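The endothelial marker genes *Pecam1*, *Kdr*, *Cdh5*, *Tek*, *Tie1*, *Flt1*, *Emcn*, *Esam* and *Eng* were examined in nephron progenitor cells from embryonic mouse kidneys. Members were chosen by name, and all 9 were on the array, with 11 of its 41174 probes, since *Cdh5* and *Flt1* had 2 probes each. The cells were sorted by FACS for the green fluorescence of a Cre-EGFP fusion that the *Six2* promoter drives in the cap mesenchyme, at embryonic day (E) 15.5. Mutant (*Mut*) cells came from Six2 CreEGFP+; PRR flox/flox kidneys, in which Cre removes the prorenin receptor (PRR) from the *Six2* lineage. Control (*WT*) cells came from Six2 CreEGFP+; PRR+/+ kidneys, so the Cre-EGFP transgene was shared by both genotypes and tells nothing about its own effect. There were 3 *Mut* and 3 *WT* pools, and each pool held cells of several kidneys. On arrays 1, 2 and 3 a *Mut* pool labelled in Cy3 (green) met the equally numbered *WT* pool in Cy5 (red). Array 4 held *WT* pool 2 in Cy3 and *WT* pool 1 in Cy5 and is named the *WT* vs *WT* array below.

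Endothelial cells line blood vessels and in the kidney build the glomerular and peritubular capillaries. They derive from a different lineage than the *Six2*-positive progenitors, and a gate on EGFP driven by *Six2* is one that would leave them out. KDR (VEGFR2) is the main signalling receptor for vascular endothelial growth factor A (VEGF-A), and FLT1 (VEGFR1) binds VEGF-A and placental growth factor. TEK (TIE2) is the receptor of the angiopoietins, and TIE1 is its partner. PECAM1 (CD31), VE-cadherin (*Cdh5*) and ESAM sit at junctions between endothelial cells, endomucin (*Emcn*) is a sialomucin of capillary and venous endothelium, and endoglin (*Eng*) is a co-receptor for ligands of the TGF-β family. *Cdh5*, *Tie1* and *Emcn* are close to restricted to endothelium, whereas *Pecam1* is also made by platelets and leukocytes and *Eng* by stromal and some blood cells. The comparison asks whether transcripts of these genes were measurable in the sorted cells and whether their level differed between *Mut* and *WT*.

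The arrays were dim. A probe is called well above background here where the scanner program flagged a share of at least 0.5 of its kept spots so, and this held for 45.1% to 49.5% of the probes in the *Mut* channel and for 54.1% to 58.3% in the *WT* channel of arrays 1 to 3. Of 12 nephron progenitor markers, 11 were well above background in both channels of those arrays, among them *Six2* and *Cited1*. *Atp6ap2*, which encodes PRR, had log2 *Mut*/*WT* ratios of -0.08, -0.19 and -0.25 on arrays 1, 2 and 3, and its log2 Cy3/Cy5 ratio without any difference of genotype, on array 4, was -0.19. Whether its probe lies in the deleted part of the gene is not given in the sources used here. By RT-PCR the study found less PRR mRNA in sorted *Mut* than in sorted *WT* cells. The sign of every ratio follows the dyes in the labels, and the resulting direction is opposite to the one the study gives for some genes of the lists used here (*Vegfa*, *Pdgfrb*, *Eya1* and *Tcf21*) and the same for others (such as *Hbb-y*). Dyes were never exchanged on arrays 1 to 3, so genotype and dye cannot be told apart there. Array 4 stood apart. *WT* pool 1 had a normalized log2 level of *Hba-a1* (α-globin) of 10.34 in Cy5 on array 1 and of 11.78 in the same dye on array 4, and the mean of the 3 *Mut* pools was 11.59. For the 827 probes that differed by the thresholds given below, levels on array 4 were set against the *Mut* and *WT* means of arrays 1 to 3. *WT* pool 1 on array 4 lay closer to the mean of the 3 *Mut* pools than to that of the 3 *WT* pools in 298 (36%). *WT* pool 2, in Cy3 as the *Mut* pools were, did so in 537, and both *WT* channels of array 4 did in 292 (35.3%). Array 4 is labelled as *WT* in both channels, and whether it holds the pools its labels name was not tested, so every *WT* vs *WT* value is that of the array labelled so. The *Mut* vs *WT* test uses arrays 1 to 3 only, and values that rest on array 4 are named as such. The pools are the replicates, and *P*-values measure the spread between 3 arrays.

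Most endothelial marker probes were dim and in Cy3 overlapped the negative controls. Before any correction, the brightest of 153 negative-control spots reached between 60 and 70 scanner units in Cy3 and between 66 and 71 in Cy5 over the 4 arrays. In Cy5 the probes of *Kdr*, *Emcn*, *Esam* and *Eng*, the brighter *Cdh5* and both *Flt1* probes exceeded the brightest negative control of the same array on 4 of 4 arrays, and in Cy3 *Emcn*, *Eng* and the brighter *Flt1* probe did so. Only the *Emcn* probe and the brighter *Flt1* probe were well above background in both channels of all 4 arrays. *Kdr* was well above background in *WT* on 3 of 3 arrays and in *Mut* on none, and *Eng* in *WT* on 3 of 3 and in *Mut* on 1. The *Esam* probe and the brighter *Cdh5* probe were well above background in *WT* on 1 array and in *Mut* on none. The remaining 5 probes, those of *Pecam1*, *Tek*, *Tie1*, the dimmer *Cdh5* and the dimmer *Flt1* probe, were not well above background in either channel of arrays 1 to 3. In bulk pools, few endothelial cells with much RNA and many cells with little RNA of these genes cannot be told apart.

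**Figure D1:**
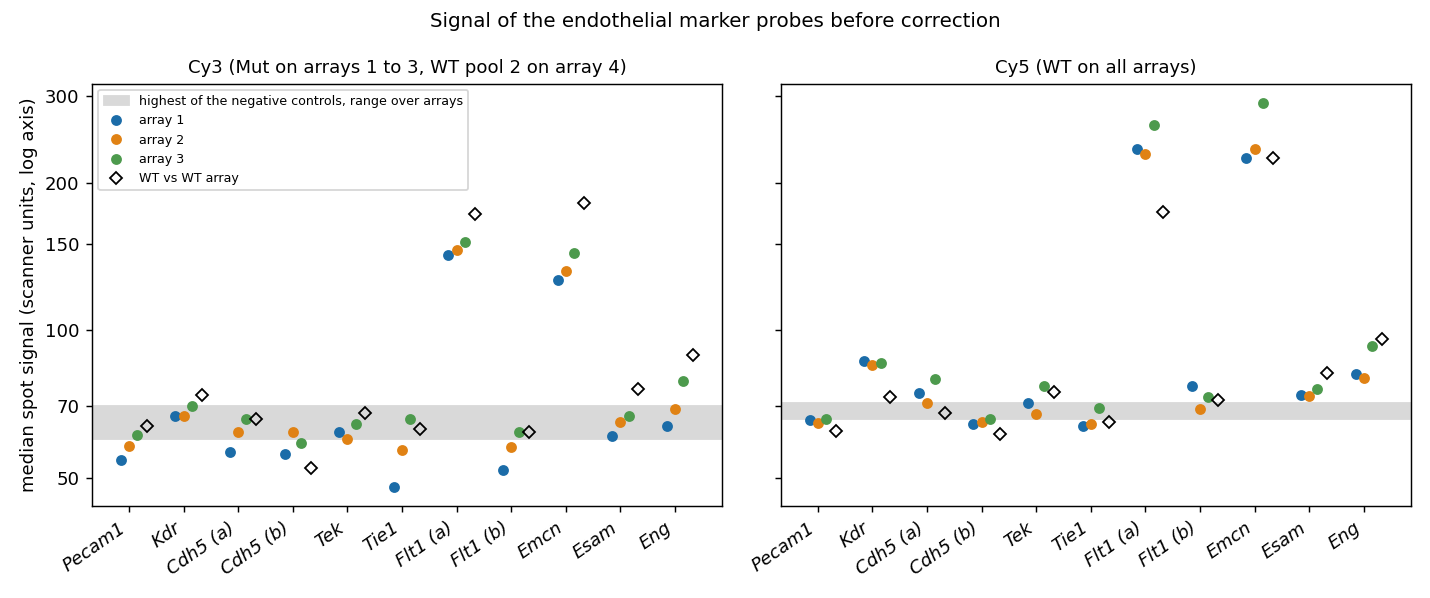
Median spot signal in scanner units (log axis) of the 11 endothelial marker probes before correction, with Cy3 on the left (*Mut* on arrays 1 to 3) and Cy5 on the right (*WT*); points are single arrays, diamonds the *WT* vs *WT* array, and the grey band spans the brightest negative control over the 4 arrays. (a) and (b) mark the brighter and the dimmer probe of *Cdh5* and *Flt1*. *Emcn* and *Flt1* (a) sit above 120 in both channels, and most other points lie in or near the grey band.

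No endothelial marker gene passed the thresholds for differential expression. The thresholds were a 1.5-fold change and an adjusted *P* of 0.05, and 0 of 11 member probes passed both, against 827 of 41166 probes tested (2.01%). Of all probes, 227 (0.551%) were called higher and 600 (1.46%) lower in *Mut*. This split depended on the values used, with 1489 higher and 1216 lower in the ratios of the scanner program, and 146 higher and 177 lower with a dye term. By adjusted *P* alone 0 of 11 member probes passed, against 12187 of all probes (29.6%), and 2 of 11, both of *Flt1* and with opposite signs, were under 0.05 before adjustment. By the *t*-test of the methods this was so for 1 of 11, which was not past the fold change. How bright a probe was bears on these shares. Among probes well above background in both channels of arrays 1 to 3, 795 of 17910 (4.44%) were called, and 8621 (48.1%) passed by adjusted *P* alone, and only 2 member probes were in that set. Among probes that were so in neither channel, limma called 0 of 16250 (0%), 3037 of which were at an unadjusted *P* under 0.05 and 1320 (8.12%) at an adjusted one, and 5 member probes were in that set. With shares of this size, a count of 0 among 11 probes does not set the members apart from other genes.

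After normexp and loess, the mean ratios of the 11 member probes were close to 0. These mean log2 *Mut*/*WT* ratios ran from -0.15 to 0.14, with a median of -0.04, and the median over all probes was -0.0009. The median of the member probes was -0.04, -0.02 and -0.06 on arrays 1, 2 and 3 (SD 0.0208, n = 3) and -0.006 on the *WT* vs *WT* array. Means of 9 probes were below 0 and those of 2 above, but the direction turned with the scaling, since with median centring in place of loess 2 of 11 were below 0 and the median was 0.04. On all 3 arrays 4 probes were below 0 and 2 above, and the arrays differed in sign for the other 5. The 95% interval of all 11 probes lay within a 1.5-fold change in either direction. For the dim probes this interval describes ratios near background with an offset of 50 added to both channels, which pulls them towards 0, and sets no such limit on the transcripts.

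**Figure D2:**
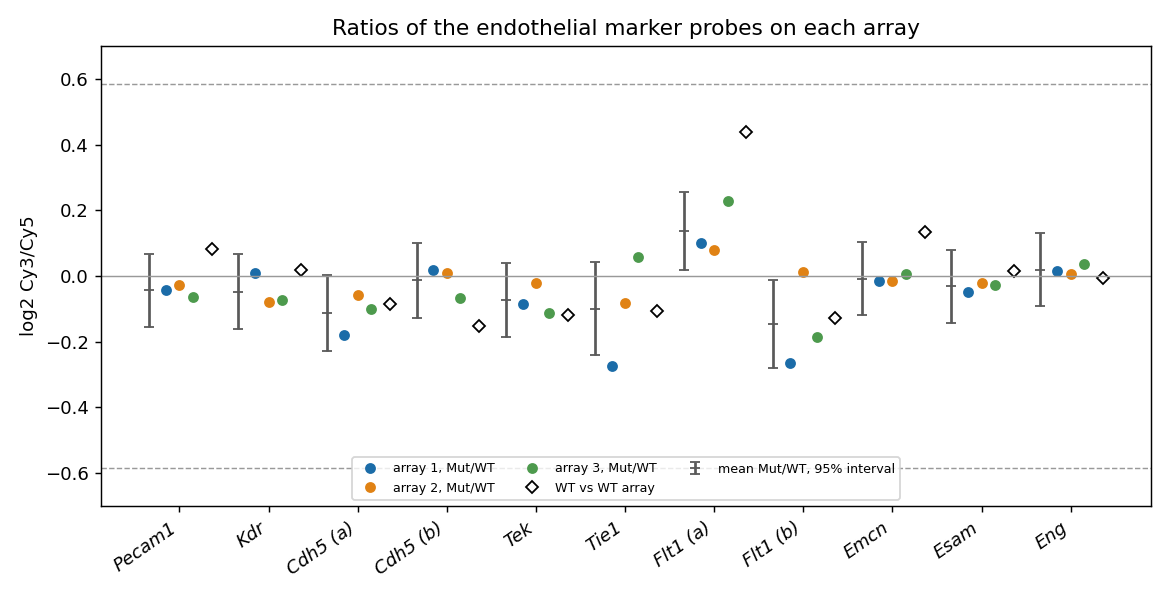
log2 Cy3/Cy5 of the 11 endothelial marker probes on each array, with filled points for *Mut*/*WT* on arrays 1 to 3, diamonds for the *WT* vs *WT* array, and bars for the mean *Mut*/*WT* ratio with its 95% interval. Dashed lines mark a 1.5-fold change. No point of arrays 1 to 3 reaches these lines, and the diamond of *Flt1* (a), at 0.44, is the farthest from 0.

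*Emcn* was well above background in both channels of every array. Its probe (A_51_P153124) had a *Mut* signal of 127, 132 and 144 on arrays 1, 2 and 3 and a *WT* signal of 225, 234.5 and 291, before correction for the different gain and background of the dyes. After normalization its log2 level was 7.61, 7.63 and 7.68 in *Mut* and 7.62, 7.65 and 7.68 in *WT*. The genotypes overlapped. The log2 ratio was -0.02, -0.01 and 0.01, with a mean of -0.01 (SE 0.0506, n = 3, adjusted *P* = 0.924). The 95% interval ran from 1.09-fold lower to 1.07-fold higher in *Mut*. Its width comes mostly from the spread common to all probes, since the SD of the 3 *Emcn* ratios was 0.0122. The interval does not cover the choice of scaling, since with median centring in place of loess the mean was -0.37 (adjusted *P* = 0.253). On the *WT* vs *WT* array the log2 Cy3/Cy5 ratio was 0.13, farther from 0 than on any *Mut* vs *WT* array.

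The VEGF receptor *Flt1* gave opposite signs with its 2 probes. The brighter probe (A_51_P398723) had a normalized log2 level of 7.76 in each of the 3 *Mut* pools and of 7.66, 7.68 and 7.54 in *WT*, so that every *Mut* value was above every *WT* value. The log2 ratio was 0.10, 0.08 and 0.23, with a mean of 0.14 (SE 0.0541, n = 3, adjusted *P* = 0.0813). It was 0.44 on the *WT* vs *WT* array, where no genotype differed. *WT* pool 1 was 0.474 lower on the log2 scale in Cy5 on array 4 than in Cy5 on array 1, a gap larger than that between *Mut* and *WT*. The dimmer probe (A_52_P520859) had raw signals of 52, 58 and 62 in *Mut* and of 77, 69 and 73 in *WT*, not well above background in either. Its log2 ratio was -0.26, 0.01 and -0.19, with a mean of -0.15 (SE 0.0611, n = 3, adjusted *P* = 0.0942), and it was -0.13 on the *WT* vs *WT* array. Neither probe passed the adjusted threshold.

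*Kdr*, which encodes the other VEGF receptor, was near background. The array carries its probe (A_51_P316553) in 10 copies, and the mean signal of the copies was 66.8, 66.8 and 70 in *Mut* and 86.7, 84.9 and 85.8 in *WT*. In *WT* 10 of 10, 9 of 9 and 10 of 10 kept copies were flagged well above background, and in *Mut* 3 of 10, 0 of 9 and 1 of 10. On the *WT* vs *WT* array 0 of 10 copies in Cy3 and 5 of 10 in Cy5 were flagged, and the mean Cy5 signal was 73.2, lower than on arrays 1 to 3. The part of dye and genotype in these counts was not tested. The log2 ratio was 0.01, -0.08 and -0.07, with a mean of -0.05 (SE 0.0519, n = 3, adjusted *P* = 0.523).

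The endoglin probe (*Eng*, A_51_P268563) had raw signals of 64, 69 and 79 in *Mut* and of 81.5, 80 and 93 in *WT*. The *Eng* log2 ratio was 0.01, 0.01 and 0.04, with a mean of 0.02 (SE 0.0507, n = 3, adjusted *P* = 0.813). On the *WT* vs *WT* array it was -0.01, and both channels were well above background there, at 89 and 96. *Eng* and the brighter *Flt1* probe were the only member probes with a mean above 0 after loess.

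The junction genes had signals that overlapped the negative controls in Cy3. *Pecam1* (A_51_P400868), also carried in 10 copies, had a mean signal of 54.4, 58.1 and 61.3 in *Mut* and of 65.7, 64.7 and 66.1 in *WT*. None of its copies was well above background in any channel of the 4 arrays. Its log2 ratio was -0.04, -0.03 and -0.06, with a mean of -0.04 (SE 0.0507, n = 3, adjusted *P* = 0.551), and it was 0.08 on the *WT* vs *WT* array. The brighter *Cdh5* probe (A_52_P248604) had raw signals of 56.5, 62 and 66 in *Mut* and of 74.5, 71 and 79.5 in *WT*. Its log2 ratio was -0.18, -0.06 and -0.10, lower in *Mut* on 3 of 3 arrays, with a mean of -0.11 (SE 0.0527, n = 3, adjusted *P* = 0.132). The same ratio was -0.08 on the *WT* vs *WT* array. The dimmer *Cdh5* probe (A_51_P309056) had ratios of 0.02, 0.01 and -0.07, with a mean of -0.01 (SE 0.0518, n = 3, adjusted *P* = 0.878), and of -0.15 with *WT* in both dyes. *Esam* (A_51_P448325) had raw signals of 61, 65 and 67 in *Mut* and of 74, 73.5 and 76 in *WT*. Its log2 ratio of -0.05, -0.02 and -0.03 gave a mean of -0.03 (SE 0.0507, n = 3, adjusted *P* = 0.675).

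The angiopoietin receptors were not well above background in either genotype on arrays 1 to 3. *Tek* (A_51_P130374) had raw signals of 62, 60 and 64.5 in *Mut* and of 71, 67.5 and 77 in *WT*. Its log2 ratio was -0.09, -0.02 and -0.11, with a mean of -0.07 (SE 0.0517, n = 3, adjusted *P* = 0.317), and it was -0.12 on the *WT* vs *WT* array, where *Tek* was well above background in Cy5. *Tie1* (A_51_P177171) had raw signals of 48, 57 and 66 in *Mut* and of 64, 64.5 and 69.5 in *WT*. With ratios of -0.28, -0.08 and 0.06, *Tie1* had the widest spread between arrays of the member probes (SD 0.168, n = 3) and a mean of -0.10 (SE 0.0648, adjusted *P* = 0.277). The *WT* vs *WT* ratio of *Tie1* was -0.11, close to that mean. Without replicate 3, *Tie1* was at -0.18 and passed the adjusted *P* (0.0435) but not the fold change, and without replicate 1 it was at -0.01 (adjusted *P* = 0.935).

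For 6 of the 11 probes, array 4 gave a ratio farther from 0 than the mean *Mut*/*WT* ratio. Compared within Cy3, the mean of the 3 *Mut* pools minus *WT* pool 2 was between -0.159 for *Eng* and 0.26 for the dimmer *Cdh5* probe on the log2 scale, and below 0 for 4 of 11 probes. This comparison has 1 *WT* value per probe and no test. When a dye effect of each probe was estimated from array 4 and removed, 0 of 11 member probes passed either threshold. The brighter *Flt1* probe then had a log2 *Mut*/*WT* value of -0.30 (adjusted *P* = 0.22), *Emcn* one of -0.14 (adjusted *P* = 0.574) and *Kdr* one of -0.07 (adjusted *P* = 0.831). Each of these values rests on array 4, which stood apart as described above.

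The ratios of the dim probes differed in size between ways of processing. In the log ratios of the scanner program, which come after background subtraction and dye normalization and carry no offset, 9 of 11 member probes were below 0 and the median was -0.53. The dimmer *Flt1* probe was at -1.90, -1.02 and -1.26 on arrays 1, 2 and 3, with a mean of -1.39 (adjusted *P* = 0.0727), and at -1.99 on the *WT* vs *WT* array. The brighter *Cdh5* probe had a mean of -1.11 (adjusted *P* = 0.161) and a *WT* vs *WT* ratio of 0.18. *Tek* had a mean of -0.90 (adjusted *P* = 0.236) against -1.19 with *WT* in both dyes, and *Tie1* one of -0.75 (adjusted *P* = 0.0615) against -0.76. Other dim probes were closer to 0 on array 4 than in the mean of arrays 1 to 3, with -0.12 against -0.53 for *Kdr*, -0.007 against -0.31 for *Pecam1* and -0.36 against -0.63 for *Esam*. The dimmer *Cdh5* probe was at -1.01 and -0.26 on arrays 1 and 3 and is listed at exactly 0 on arrays 2 and 4. With normexp without an offset, which changes only that step, the dimmer *Flt1* probe was at -0.57, the brighter *Cdh5* probe at -0.37 and *Tek* at -0.23. *Emcn* was at -0.007 and the brighter *Flt1* probe at 0.33 in the ratios of the scanner program, and with median centring they were at -0.37 and -0.23. No member probe was called in any of these 3 ways. In the ratios of the scanner program 4 were at an unadjusted *P* under 0.05, 3 of them also past the fold change. Without an offset or with median centring 0 were.

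**Figure D3:**
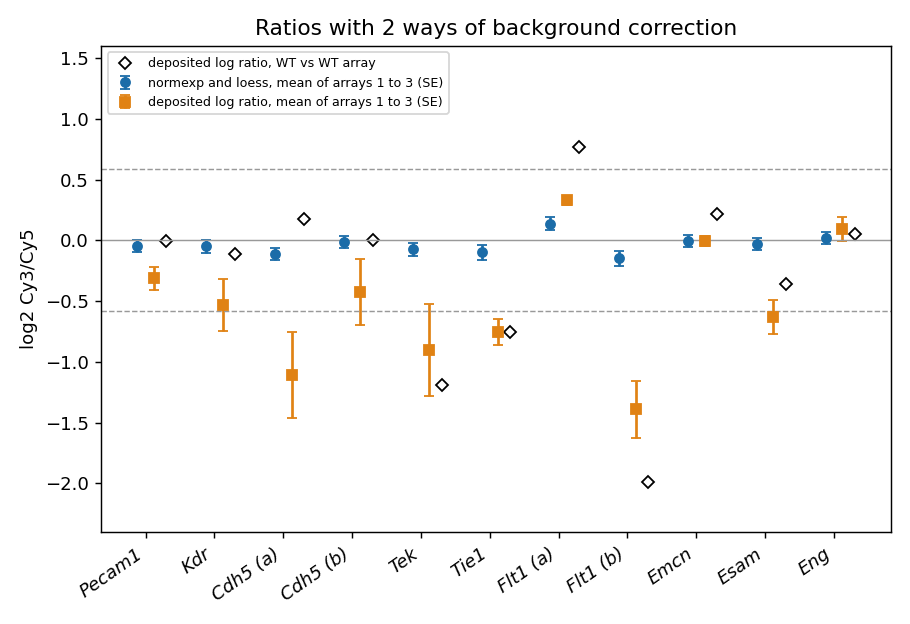
Mean log2 Cy3/Cy5 on arrays 1 to 3 (bars, SE) of the 11 endothelial marker probes after normexp and loess (circles) and in the log ratios of the scanner program (squares), with the latter also for the *WT* vs *WT* array (diamonds); dashed lines mark a 1.5-fold change. The squares of the dim probes reach down to -1.39, while those of *Emcn* and *Flt1* (a) stay within 1.5-fold.

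Other genes of the endothelium were grouped by role into ligands, receptors, surface and junction proteins, and transcription factors, with each gene given by its brightest probe. Of the 77 genes of these lists 75 were measured, and 40 were well above background in both channels of arrays 1 to 3. Of the 75, 2 were called higher and 2 lower in *Mut*, beside the 2.01% of all probes given above. By adjusted *P* alone 9 were higher and 14 lower, beside 29.6% of all probes. The median log2 ratio over the lists was 0.003. Many of these genes are also expressed outside endothelium, in nephron progenitors, stroma or mural cells, so the lists do not measure endothelial cells alone. With normexp without an offset or with median centring, 0 of all probes on the array were called by limma, against 3522 and 6028 past the fold change at an unadjusted *P* under 0.05.

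Among 11 ligands, *Vegfd* was called higher and *Pgf* lower in *Mut*. *Vegfd*, a ligand of VEGF receptors known for its action on lymphatic vessels, had log2 ratios of 0.93, 0.86 and 0.69 and a mean of 0.83 (SE 0.0586, n = 3, adjusted *P* = 3.48e-06), against 0.15 on the *WT* vs *WT* array. Both *WT* channels of array 4, at normalized log2 levels of 8.58 and 8.43, were nearer to the *Mut* mean of 8.80 than to the *WT* mean of 7.97. With median centring *Vegfd* was at 0.35 (adjusted *P* = 0.352). It was still called in the ratios of the scanner program (1.17, adjusted *P* = 0.0458) and with a dye term (0.68, adjusted *P* = 0.0195). *Pgf*, which encodes the placental growth factor bound by FLT1, had ratios of -1.04, -0.87 and -0.58 and a mean of -0.83 (SE 0.0752, n = 3, adjusted *P* = 1.91e-05). The *WT* vs *WT* ratio of *Pgf* was -0.27, and *Pgf* was no longer called with a dye term (-0.56) or in the ratios of the scanner program (-1.03, adjusted *P* = 0.0678). *Vegfb* (-0.28, adjusted *P* = 0.00213) and *Angpt2*, an angiopoietin (0.20, adjusted *P* = 0.0279), passed the adjusted *P* but not the fold change. With median centring *Vegfb* was at -0.93 (adjusted *P* = 0.105) and the brightest *Vegfa* probe at -0.64 (adjusted *P* = 0.213). *Vegfa*, singled out after its values were seen because KDR and FLT1 bind its product, differed between its 3 probes. The brightest had ratios of -0.09, 0.09 and -0.13 and a mean of -0.04 (adjusted *P* = 0.609), the second a mean of -0.27 (adjusted *P* = 0.00352), and the third, which was called lower, a mean of -0.80 (adjusted *P* = 1.11e-05), while array 4 gave -0.38. The third was called neither with a dye term nor in the ratios of the scanner program (-1.02, adjusted *P* = 0.0507).

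Of 16 receptors measured, 0 were called by limma in either direction, and 1 was higher and 2 lower by adjusted *P* alone. *Nrp1*, a co-receptor of VEGF and semaphorins, had a mean log2 ratio of -0.32 (adjusted *P* = 0.00159), and *Calcrl*, the receptor of adrenomedullin, one of -0.30 (adjusted *P* = 0.00205). With median centring both were farther from 0, at -0.72 and -0.80, and neither passed. A second probe of *Nrp1* was at -0.55 (adjusted *P* = 8.5e-05) and one of *Calcrl* at -0.07 (adjusted *P* = 0.301). *Ephb4*, a receptor of venous endothelium, was at 0.08 (adjusted *P* = 0.239) and *Robo4* at 0.05 (adjusted *P* = 0.479), and neither passed.

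Of 25 surface and junction genes measured, *Vcam1* was called higher and *Cd34* lower in *Mut*. *Vcam1*, an adhesion receptor for leukocytes that stromal cells also carry, had a mean log2 ratio of 0.65 (SE 0.0559, n = 3, adjusted *P* = 1.32e-05) and was not called with a dye term (0.53). On array 4 its *WT* levels were 7.74 and 7.61, against means of 7.81 in *Mut* and 7.16 in *WT* on arrays 1 to 3. A second *Vcam1* probe, not well above background in either genotype, was at -0.07 (adjusted *P* = 0.344). *Cd34*, a sialomucin of endothelial, haematopoietic and some stromal cells, had a normalized log2 level of 8.70, 8.76 and 8.75 in *Mut* and of 9.55, 9.50 and 9.39 in *WT*, with no overlap, and a mean ratio of -0.74 (SE 0.0564, n = 3, adjusted *P* = 5.67e-06). On array 4, however, both *WT* pools were at the level of the *Mut* pools, with 8.69 for pool 2 in Cy3 and 8.70 for pool 1 in Cy5. *WT* pool 1 thus gave 9.55 and 8.70 in the same dye on arrays 1 and 4, a gap as large as that between the genotypes. *Cd34* was still called in the ratios of the scanner program (-0.81, adjusted *P* = 0.0309). It was also called with a dye term (-0.73, adjusted *P* = 0.0111), which rests on array 4. *Cldn5*, which encodes a tight junction claudin, was higher (0.32, adjusted *P* = 0.000943, but -0.03 with median centring) and *Thbd*, which encodes thrombomodulin, lower (-0.47, adjusted *P* = 0.000149) by adjusted *P* alone. *Thbd* was called lower in the ratios of the scanner program (-0.73, adjusted *P* = 0.0351). With median centring *Vcam1* was at 0.34, *Cd34* at -1.29 and *Thbd* at -0.81, none of them past the adjusted *P*.

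Of 23 transcription factors, limma called 0, with 2 higher and 5 lower by adjusted *P* alone. *Klf4* was just under the fold change at 0.58 (adjusted *P* = 2.49e-05) and past it without replicate 1 (0.59) or 3 (0.61), called in the ratios of the scanner program (0.73, adjusted *P* = 0.04), but at 0.01 with median centring and 0.33 with a dye term, and *Hey1*, a Notch target, was at 0.38 (adjusted *P* = 0.000263, but -0.19 with median centring). *Klf2*, which is induced by flow in endothelium, was at -0.53 (adjusted *P* = 0.000784) with its brighter probe and at 0.18 (adjusted *P* = 0.0261) with the other, so its direction rests on the choice of probe. Without replicate 3 the brighter probe was called lower, at -0.68, and with median centring it was at -1.15 (adjusted *P* = 0.0859). *Mef2c* was at -0.34 (adjusted *P* = 0.00087). Of the 14 endothelial genes named from these lists that passed the adjusted *P*, 12 had both channels of array 4 closer to the mean of the *Mut* pools. This was so for 292 of the 827 called probes (35.3%), and the share over all probes past the adjusted *P* alone was not counted. The 14 were named as called genes or as the highest and lowest of their lists, so this count does not set them apart from other genes.

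**Figure D4:**
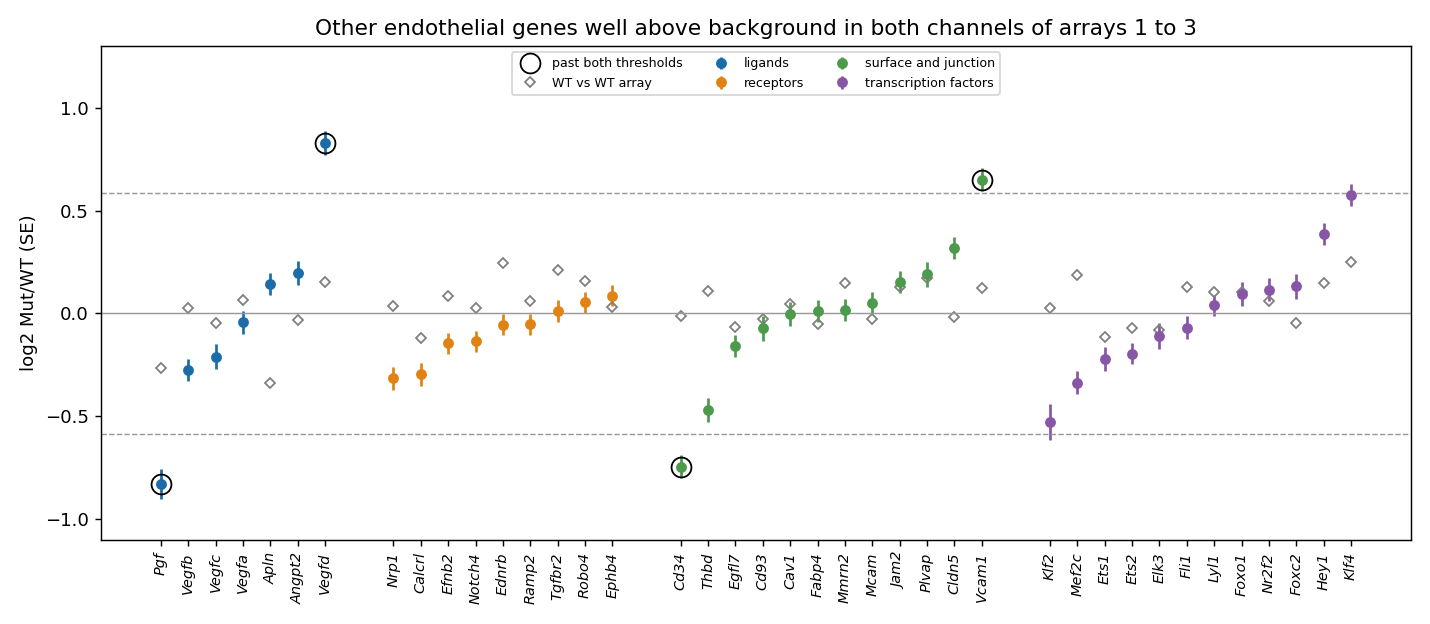
Mean log2 *Mut*/*WT* ratio with its SE (n = 3 arrays) of the 40 other endothelial genes that were well above background in both channels of arrays 1 to 3, grouped by role and ordered by ratio; grey diamonds show the *WT* vs *WT* array, dashed lines a 1.5-fold change and rings the genes past both thresholds. *Pgf* and *Cd34* lie below and *Vegfd* and *Vcam1* above the lines.

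Markers of other cells that a sort of embryonic kidney could hold were read beside the endothelial genes. The summed normalized level of the 9 endothelial marker genes, 1 probe each, was between 965.5 and 985.3 in the *Mut* pools and between 968.2 and 994.3 in the *WT* pools of arrays 1 to 3, so the genotypes overlapped. *WT* pool 1 on array 4 was at 911.4, outside both ranges, and since most of these probes lay near the floor set by the offset, the sum had little room to move. Nephron progenitor markers summed to between 27270 and 28680 in *Mut* and to between 30340 and 31510 in *WT* on arrays 1 to 3, but on array 4 *WT* pool 2 was at 27570, inside the *Mut* range, and *WT* pool 1 at 29740, between the ranges. The gap was that of *Crym*, without which the other 11 genes summed to between 14470 and 14890 in *Mut* and to between 14470 and 14820 in *WT*. By adjusted *P* alone 6 of 12 were lower, *Six2* among them (-0.18, adjusted *P* = 0.0402), and 2 higher, beside 48.1% of all probes well above background in both channels. The brightest probe of none of the 12 was called by limma, but a second probe of *Meox1* (-0.75, adjusted *P* = 4.43e-06) and of *Osr1* (-0.66, adjusted *P* = 0.00074) was. Erythroid markers summed to between 3933 and 4104 in *Mut* and to between 2120 and 2290 in *WT*, with 1 of 11 called, *Hba-a1* (1.17, adjusted *P* = 2.99e-07). The sum without *Hba-a1* was not taken. By adjusted *P* alone 4 of 11 were higher and 0 lower, beside 29.6% of all probes, among them *Hbb-y* (0.49, adjusted *P* = 0.000434) and *Alas2* (0.38, adjusted *P* = 0.000877). On array 4, however, the erythroid sum was 3991 in *WT* pool 2 and 4456 in *WT* pool 1. *Gata1*, a transcription factor that defines the lineage, was not well above background in either genotype, while *Hba-a1*, *Alas2* and *Epor* were so in both. Haematopoietic markers summed to between 1200 and 1260 in *Mut* and to between 1236 and 1254 in *WT*, with 0 of 13 called by limma, 2 at an adjusted *P* under 0.05 and *Ptprc* not well above background in either genotype.

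Mural cells and stroma, which lie around the vessels, differed between the genotypes in single genes. Mural markers summed to between 4937 and 6139 in *Mut* and to between 6633 and 7288 in *WT*, and were at 6770 and 7661 in the *WT* pools of array 4. The direction of this sum was that of the brightest *Acta2* probe, without which *Mut* was at 3838 to 4006 and *WT* at 3561 to 3631, and by adjusted *P* alone 5 mural genes were higher and 4 lower. Over all probes 29.6% passed so and 2.01% were called, and over those well above background in both channels 48.1% and 4.44%. Of 12 mural markers, *Pdgfrb* was called higher (0.60, adjusted *P* = 0.00012), and *Des* (-0.80, adjusted *P* = 1.21e-05) and *Acta2* (-1.24, adjusted *P* = 3.85e-05) lower, but the other 2 probes of *Acta2* were at 0.39 and -0.06. Stromal markers summed to between 7807 and 9197 in *Mut* and to between 6477 and 6875 in *WT*, and on array 4 to 7846 in *WT* pool 2 and 6964 in *WT* pool 1, with 2 of 9 called, *Col1a1* (0.89, adjusted *P* = 1.85e-06) and *Col3a1* (0.78, adjusted *P* = 8.13e-06). The stromal sum without these 2 was not taken. The other probes of *Col1a1* were at 0.33 and -0.02 and that of *Col3a1* at 0.007, none of them called. By adjusted *P* alone 6 stromal genes were higher and 2 lower, the latter being *Foxd1* (-0.30, adjusted *P* = 0.00207) and *Lum* (-0.42, adjusted *P* = 0.000309). With median centring *Col1a1* was at 0.28 and *Col3a1* at 0.16. None of *Col1a1*, *Col3a1*, *Pdgfrb*, *Des* and *Acta2* was called with a dye term, and of these only *Col1a1* was called in the ratios of the scanner program. *Pdgfrb* fell short of the fold change without replicate 1 (0.49). Among 4 podocyte and 6 ureteric bud markers limma called 0. The part of these cells in the ratios of *Vegfd*, *Pgf*, *Vcam1* and *Cd34* was not tested.

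The genes whose ratios were most like those of the measured members were sought over the 12509 probes with a symbol that were well above background in both channels of all 4 arrays. The median of *Emcn* and the brighter *Flt1* probe was 0.04, 0.03 and 0.12 on arrays 1, 2 and 3 and 0.29 on array 4. The smallest root mean square differences from these 4 values on the log2 scale were those of *Rpl36a* (0.0229), *Pvr* (0.0255) and *Ankk1* (0.0257), and the median over all probes compared was 0.228. None of these 3 was in the endothelial lists.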

How the data were processed

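RNA of FACS-isolated *Mut* and *WT* cells was measured on 4 dual-colour Agilent arrays of 1 slide, and pool and dye were taken from the labels. Per the file headers, the authors extracted spots with Agilent Feature Extraction 10.7.3.1. Deposited spot and local background intensity values are linear and not normalized. The deposited log10 ratio (red over green) comes from background-subtracted, dye-normalized signals of the program and was turned to log2 Cy3/Cy5. GeneSpring values were not analysed here. From median signal and median background, normexp (offset 50, all spots) and loess within each array were applied with control spots at weight 0. Outlier spots (122 to 162 an array) were dropped, spots of a probe were averaged, and levels come from Aquantile normalization. Ratios of arrays 1 to 3 were tested against 0 with limma 3.58.1 in R 4.3.3 (lmFit, eBayes), with Benjamini-Hochberg adjustment over 41166 probes, and checked on simulated data. The number of arrays limits the precision.

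Symbols came from a RefSeq table matched by accession (22951 of 41174 probes, 55.7%), for names only. The members and gene lists were chosen with earlier results of these data known. All member probes are named. A listed gene is given by its brightest probe. Every gene called by that probe is named, and of each endothelial list the 2 highest and 2 lowest among genes well above background. Promoter motifs were not analysed here, and the result of 1 marker gene is not reported here. Alternatives covered the deposited ratios, no offset, median centring, keeping outlier spots, dropping dim probes, a dye term from array 4, unpaired channels, the methods' *t*-test, the fold minimum and leaving out each replicate.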

Additional observations from a re-analysis of the deposited data

How the results depend on the processing

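No member probe was called under any alternative tried. At an unadjusted *P* under 0.05, 4 member probes passed in the deposited log ratios (3 also past the fold change), and between 0 and 2 elsewhere, with 0 past the fold change. Without replicate 3 *Tie1* passed the adjusted *P* alone. The median log2 ratio of the member probes, -0.0441, was -0.531 in the deposited ratios, -0.132 with normexp without an offset, 0.0382 with median centring in place of loess, 0.0055 over the 4 probes left by a filter on dim probes, and between -0.0373 and -0.029 when a replicate was left out.

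The sign of single ratios, those of *Cldn5* and *Hey1* included, changed with the scaling, and the cause was not tested. With median centring, *Pecam1* was at 0.107, *Kdr* at 0.0202, the *Cdh5* probes at 0.0382 and 0.161, *Tek* at 0.0423, *Tie1* at 0.0353, *Esam* at 0.106, and the *Flt1* probes at -0.234 and 0.00573. Outside the members, *Ephb4* was at -0.404, *Cldn5* at -0.0326 and *Hey1* at -0.19. With a dye term, the dimmer *Cdh5* probe was at 0.138, *Tek* at 0.0457, *Tie1* at 0.00696, the brighter *Flt1* probe at -0.304 and *Robo4* at -0.105. *Emcn* was at 0.02 without an offset, and the dimmer *Cdh5* probe at 0.0146 without replicate 3.

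Of all probes, 827 were called, against 2705 in the deposited ratios, 0 without an offset (3522 at an unadjusted *P* under 0.05 and past the fold change), 0 with median centring (6028), 323 with a dye term, 0 by the methods' *t*-test after Benjamini-Hochberg adjustment (691 before), 12187 with no fold minimum, and 606 to 1207 when a replicate was left out. Of the other endothelial genes, 4 were called, against 5 in the deposited ratios, 0 without an offset (7 before adjustment), 0 with median centring (16), 2 with a dye term, 0 by the *t*-test (4), and 4 to 6 when a replicate was left out. The test of ratios pairs the *Mut* and *WT* pool of each array, and with unpaired channels 824 probes were called.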
